A study of Homo sapiens with 4 samples.

Results

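Cells hold zinc through a set of transporters and buffering proteins, and 36 genes of that set were followed here by name. They are the zinc exporters of the SLC30A family (10 genes), the zinc importers of the SLC39A family (14 genes), the metallothioneins (11 genes) and MTF1 (1 gene). They were picked as every symbol on the array that starts with SLC30A or SLC39A, is MT1 followed by 1 letter, or is MT2A, MT3 or MTF1, out of 31415 gene symbols. Expression was profiled in MDA-MB-231, a widely used human breast cancer cell line, on Illumina HumanHT-12 v4 bead arrays of total RNA. In the shT7#1 group (n = 2 arrays) the cells had been transduced with a short hairpin RNA against TRPM7, a cation channel that carries its own kinase domain. In the shCntrl group (n = 2 arrays) they carried a scrambled hairpin, so both groups had been transduced and differ in the hairpin. The knockdown rests on 1 hairpin sequence, and the labels do not say whether the arrays of a group came from separate cultures. P-values therefore measure the spread between these arrays, which may be technical.

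SLC30A proteins (ZnT) mostly carry zinc out of the cytosol, into organelles and vesicles or out of the cell. SLC39A proteins (ZIP) carry it into the cytosol from outside or from stores. Metallothioneins are small cysteine-rich proteins that bind zinc and copper, and their genes are switched on by the zinc-sensing transcription factor MTF1 through short metal response elements in their promoters. TRPM7 itself conducts zinc as well as magnesium and calcium.

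The arrays held 47323 probes each, of which 19492 and 19938 were above background (detection p under 0.05) on the shT7#1 arrays and 19779 and 20261 on the shCntrl arrays. The 1 TRPM7 probe was above background on 0 of the 4 arrays, so the arrays do not check the knockdown. The highest signal on an array lay between 20673 and 22137 units. Of 6 markers of mesenchymal-like breast cancer cells, VIM, CD44, MSN, CAV1 and AXL were above background on all 4 arrays and SPARC on 1. Of 6 luminal or epithelial markers, GATA3, EPCAM, KRT8 and KRT18 were above background on all 4 arrays and ESR1 and CDH1 on none. Of 4 leukocyte markers, CD14 was on all 4 arrays, LYZ on 1, and PTPRC and CD3E on none. Of 4 fibroblast markers, COL1A2 and PDGFRB were on all 4 arrays, COL1A1 on 1 and DCN on none. Of 3 endothelial markers, PECAM1 was on 3 arrays and CDH5 and VWF on none. RNA was taken from bulk cells, so fewer cells with a transcript and less of it per cell cannot be told apart.

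Promoter windows are shown for MT2A and MT1X, whose signals on the shT7#1 arrays lay below those on the shCntrl arrays. MT1H is also shown, but it was above background on the shCntrl arrays only, which fixes its direction. SLC30A1 is shown as the exporter gene that MTF1 is also known to control. The windows are RefSeq sequences of GRCh38.p14 from 250 bases before to 50 bases after the annotated start. MT2A lies at chr16:56608334-56608633, MT1X at chr16:56682220-56682519 and MT1H at chr16:56669564-56669863, all on the plus strand. SLC30A1 lies at chr1:211579112-211579411 on the minus strand. Capitals mark the metal response element core, TGCACNC or TGCGCNC, on either strand, and no marked copies overlap.
MT2A: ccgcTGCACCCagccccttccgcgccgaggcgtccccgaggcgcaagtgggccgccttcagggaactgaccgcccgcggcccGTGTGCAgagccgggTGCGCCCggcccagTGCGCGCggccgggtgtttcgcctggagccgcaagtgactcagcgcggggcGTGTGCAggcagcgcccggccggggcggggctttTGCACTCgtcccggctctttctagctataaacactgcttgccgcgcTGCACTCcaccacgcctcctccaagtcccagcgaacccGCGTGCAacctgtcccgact
MT1X: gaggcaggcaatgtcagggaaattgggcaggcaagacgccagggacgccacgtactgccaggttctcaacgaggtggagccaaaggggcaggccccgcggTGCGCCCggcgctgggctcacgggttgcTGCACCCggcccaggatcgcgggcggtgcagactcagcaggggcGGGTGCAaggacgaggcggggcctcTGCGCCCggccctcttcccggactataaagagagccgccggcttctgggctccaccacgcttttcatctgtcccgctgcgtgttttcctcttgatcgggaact
MT1H: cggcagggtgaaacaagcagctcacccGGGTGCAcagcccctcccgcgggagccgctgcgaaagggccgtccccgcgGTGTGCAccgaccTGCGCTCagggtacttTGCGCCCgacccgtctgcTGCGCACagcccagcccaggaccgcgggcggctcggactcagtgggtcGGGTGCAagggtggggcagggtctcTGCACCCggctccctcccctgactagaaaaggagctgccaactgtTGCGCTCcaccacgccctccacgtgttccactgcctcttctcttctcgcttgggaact
SLC30A1: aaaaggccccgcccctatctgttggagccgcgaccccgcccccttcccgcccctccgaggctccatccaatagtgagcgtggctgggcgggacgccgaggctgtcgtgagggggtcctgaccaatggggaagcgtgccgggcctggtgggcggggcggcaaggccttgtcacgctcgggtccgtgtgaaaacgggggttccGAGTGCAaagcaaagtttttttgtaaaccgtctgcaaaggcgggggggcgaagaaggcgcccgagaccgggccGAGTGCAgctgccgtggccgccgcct

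The core occurred 8 times in the MT2A window, 8 times in that of MT1H, 4 times in that of MT1X and 2 times in that of SLC30A1. MT1B, the only other metallothionein with a window in the RefSeq table used, had 3 copies. All 4 metallothionein windows therefore held at least 3 copies, against 2.3% of all 35116 promoter windows of this length. At least 1 copy was found in 29.6% of all windows. Of the 30 windows that belong to 21 transporter genes, 13 held a copy and 1 held 3, that of SLC30A2, which exports zinc into milk. The MTF1 window held none. A match marks letters only and does not show a bound site.

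**Figure D1:**
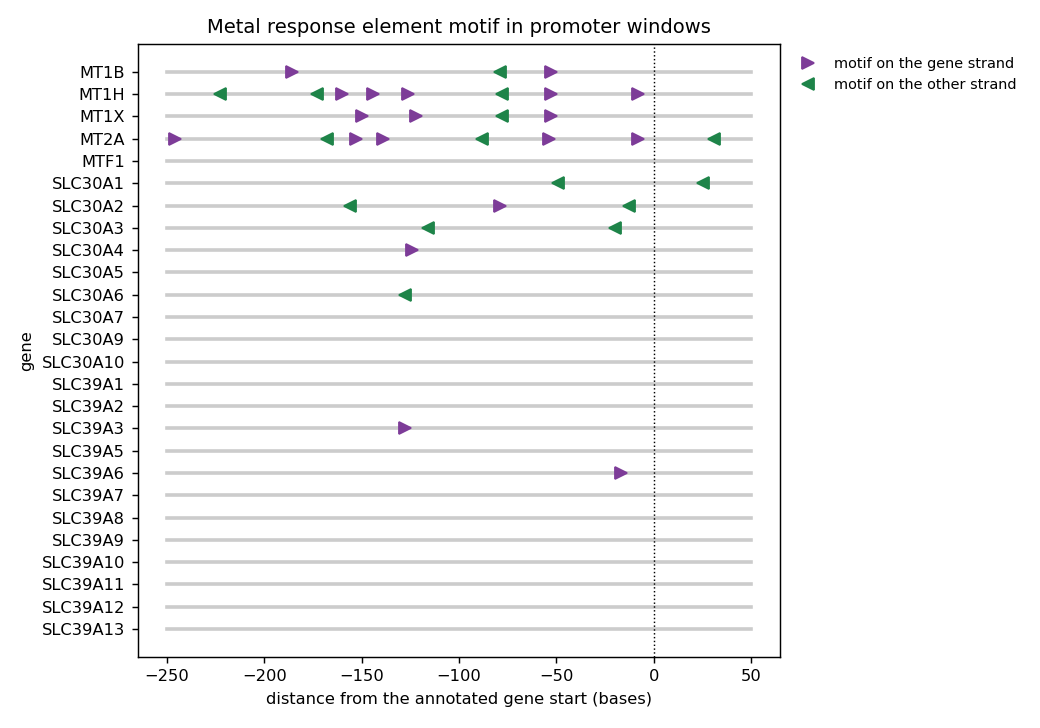
Position of each metal response element core in the promoter windows of 26 genes (x axis, bases from the annotated start, first listed start of each gene; y axis, gene). Triangles point right for the gene's strand and left for the other strand. The 4 metallothioneins at the top carry between 3 and 8 copies, while most SLC39A windows carry none.

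A gene was tested, at its brightest such probe, if a probe was above background on at least 2 of the 4 arrays, and 26 of the 36 genes were. The metallothioneins MT1B, MT1L and MT3 were not tested. Nor were SLC30A2, SLC30A4, SLC30A8, SLC30A10, SLC39A2, SLC39A5 and SLC39A12. The 36 genes had 52 probes, of which 34 and 34 were above background on the shT7#1 arrays and 36 and 35 on the shCntrl arrays. Signals below are normalised log2 units, and a difference is shT7#1 minus shCntrl with its standard error from limma. A gene is called where the limma p-value, adjusted over all 14731 genes tested, was under 0.05.

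The metallothioneins above background in both groups all had lower mean signals in shT7#1, though none passed the test over all genes, and the transporters had differences of both signs. There were 7 such metallothioneins. MT1H, the other one tested, passed the filter through the shCntrl arrays alone, which fixes its direction, so it was left out of the counts that follow after its values were seen. The 7 differences lay between -0.75 and -0.14 log2 units, with a median of -0.45. Over all 14214 genes above background on at least 1 array of each group, 49.8% had a negative difference and the median was 0.0014. None of the 26 tested members was called by limma, higher or lower, while 6.5% of all tested genes were. At an unadjusted p under 0.05, 6 of the 7 metallothioneins and 0 of the 17 tested transporters were lower, against a background of 12.6% of those 14214 genes. At that level 0 transporters were higher either. The 7 metallothioneins may not be separate measures, since some of their probes may also bind relatives, which was not tested. Tested probe by probe, 0 of the 36 member probes that passed the filter were called by limma, against 4.66% of all 20366 such probes. In 6 of the 7 metallothioneins both shT7#1 arrays lay below both shCntrl arrays, which was so for 27.2% of the 14214 genes and 28.2% of all tested genes. Of the 13 tested cell type markers, 7 had both shT7#1 arrays below both shCntrl arrays and 0 the reverse, among them AXL at -0.36 ± 0.13, CAV1 at -0.28 ± 0.13, VIM at -0.28 ± 0.12 and COL1A2 at -0.72 ± 0.15 log2 units (SE). The epithelial marker EPCAM, at -0.24 ± 0.12 (SE), was also among these 7. The groups overlapped for CD44 of the mesenchymal-like list, at 0.12 ± 0.14 log2 units (SE). The limma adjusted p of COL1A2 was 0.0544, and none of the 13 was called. The marker signals and sums that follow are normalised and on the linear scale, not raw. The sum of the 5 mesenchymal-like markers was 40441 and 40923 units on the shT7#1 arrays, against 45344 and 48700 on the shCntrl arrays. That of the 2 tested fibroblast markers was 156 and 159 units in shT7#1, against 200 and 219 in shCntrl. The sum of the 4 tested luminal or epithelial markers overlapped, with 2422 and 2245 units in shT7#1, against 2606 and 2392 in shCntrl. The 1 tested leukocyte marker overlapped too, at 164.7 and 181.6 against 165.0 and 158.3 units. The 1 tested endothelial marker had 31 and 39 units in shT7#1, against 49 and 42 in shCntrl. Whether the marker differences have a part in those of the metallothioneins was not tested.

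**Figure D2:**
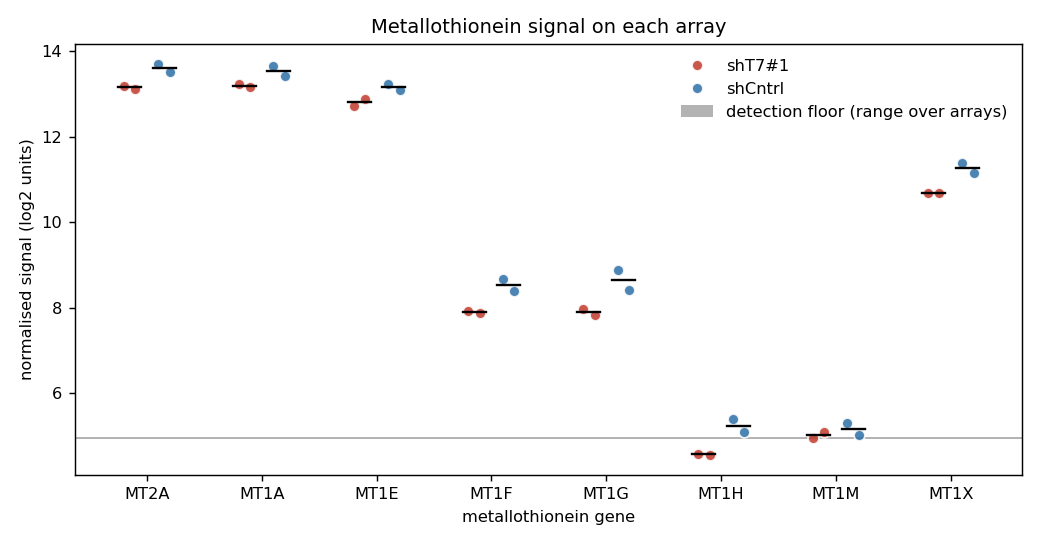
Normalised signal (y axis, log2 units) of the 8 tested metallothioneins on the shT7#1 arrays (red) and the shCntrl arrays (blue), with a bar at each group's mean of 2 arrays and a grey band for the detection floor. The groups do not overlap except for MT1M, and MT1H in shT7#1 lies under the floor. Levels may be compared within a gene, not between genes.

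MT2A encodes a metallothionein made in most human tissues. Its signal was 13.20 and 13.13 log2 units on the shT7#1 arrays, against 13.72 and 13.51 on the shCntrl arrays. The deposited raw signals were 9129 and 9635 units in shT7#1, against 13537 and 11737 units in shCntrl. Both shT7#1 arrays were thus below both shCntrl arrays before and after normalisation. The difference was -0.45 ± 0.13 log2 units (SE), a signal 1.36-fold lower, with a limma adjusted p of 0.102 and a 95% interval from -0.77 to -0.13.

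MT1X, an inducible member of the MT1 group, had 10.68 and 10.68 log2 units on the shT7#1 arrays, against 11.39 and 11.15 on the shCntrl arrays. The shT7#1 arrays were nearly equal and the shCntrl arrays both higher. The difference was -0.59 ± 0.13 log2 units (SE), a signal 1.503-fold lower, with a limma adjusted p of 0.0597. For a call at this standard error a difference of 0.64 log2 units would have been needed, taken from the largest p-value that was called.

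MT1G had the largest difference of the set. Its signal was 7.98 and 7.84 log2 units in shT7#1, against 8.89 and 8.42 in shCntrl. The groups did not overlap, but the shCntrl arrays stood 0.47 log2 units apart. The difference was -0.75 ± 0.18 log2 units (SE), or 1.68-fold lower, with a limma adjusted p of 0.0739 and a 95% interval from -1.20 to -0.29.

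MT1F, another MT1 isoform gene of the same cluster, had 7.93 and 7.87 log2 units in shT7#1, against 8.66 and 8.39 in shCntrl. The difference was -0.63 ± 0.14 log2 units (SE), or 1.54-fold lower, with a limma adjusted p of 0.0593. A difference of 0.68 log2 units would have been needed for a call. MT1F and MT1G thus showed the same layout, with close shT7#1 arrays below more widely spaced shCntrl arrays.

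MT1A had 13.23 and 13.16 log2 units in shT7#1, against 13.67 and 13.43 in shCntrl. Its difference was -0.36 ± 0.13 log2 units (SE), with a limma adjusted p of 0.165. MT1E had 12.72 and 12.89 log2 units in shT7#1, against 13.24 and 13.10 in shCntrl. Both genes encode MT1 isoforms, and in neither did the groups overlap. The difference of MT1E was -0.36 ± 0.13 log2 units (SE), with a limma adjusted p of 0.153. A second MT1E probe was above background on no array, so the result for this gene rests on 1 probe.

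MT1H and MT1M lay close to the detection floor, the lowest signal above background, which was between 4.92 and 4.98 log2 units. MT1H had 4.58 and 4.55 log2 units in shT7#1, above background on neither array, against 5.39 and 5.08 in shCntrl, above background on both. Without background correction the MT1H difference was smaller, at -0.22 log2 units. Set against the floor, MT1H was at least 1.20-fold lower in shT7#1 as processed here and was not called. That bound carries no error and holds for this processing only. The test of MT1H bears little weight, since the filter admitted it through shCntrl alone, and its second probe was above background nowhere. MT1M had 4.95 and 5.09 log2 units in shT7#1, where 1 array was above background, against 5.30 and 5.03 in shCntrl. Its groups overlapped, and its difference of -0.14 ± 0.14 log2 units (SE) had a 95% interval from -0.50 to 0.21. Metallothionein genes are closely related, so some of the metallothionein probes may also bind relatives. The MT1A probe, for one, had raw signals near those of MT2A on each array, at 9268 and 9849 units in shT7#1, against 13051 and 11139 in shCntrl. Probe sequences were not compared, and how much of the shared direction comes from such binding was not tested.

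The 8 metallothioneins also differed together between the shCntrl arrays. All 8 were higher on shCntrl replicate 1 than on replicate 2, by 0.14 to 0.47 log2 units with a median of 0.25. Over all tested genes 49.2% were higher on that array. Between the shT7#1 arrays the metallothioneins differed by -0.17 to 0.14 log2 units, with 6 of 8 higher on replicate 1. Without shCntrl replicate 1 the median metallothionein difference between the groups was -0.34 log2 units over the 7 genes without MT1H, and without shCntrl replicate 2 it was -0.56 over the same 7. Either fit leaves 1 shCntrl array, so only the sizes of the differences are given.

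**Figure D3:**
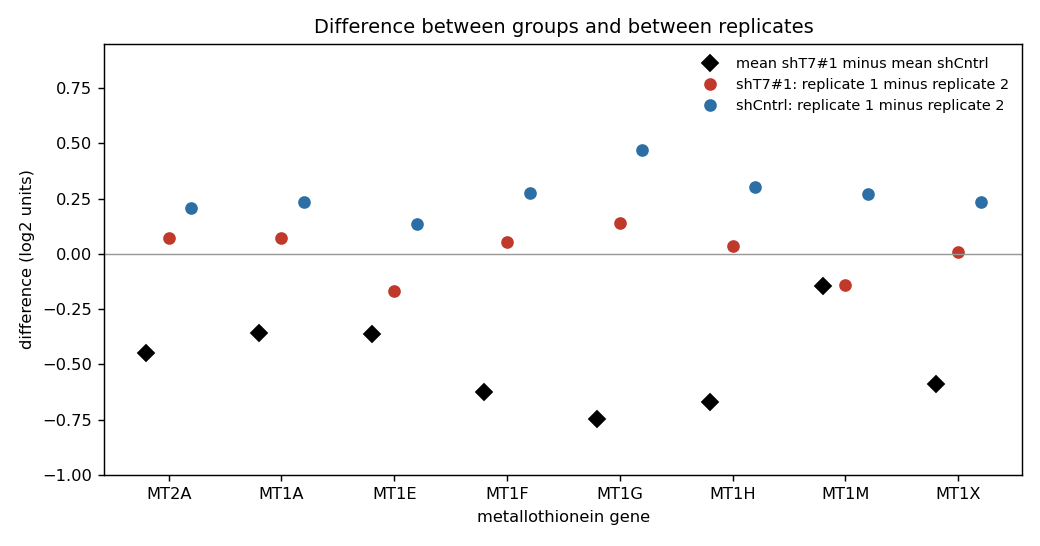
For each metallothionein, the difference between the group means (black diamonds, shT7#1 minus shCntrl) beside the difference of replicate 1 minus replicate 2 within shT7#1 (red) and within shCntrl (blue), all in log2 units. The blue points are all above 0, up to 0.47, and the diamonds all below 0, down to -0.75. The filter fixes the sign of the MT1H diamond.

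Single metallothioneins crossed the threshold under other processing of the same arrays. Over 12 alternatives, limma called MT1G lower in 5, MT1F in 4, MT1X in 3, MT2A in 2 and each of MT1A, MT1E and MT1H in 1. MT1M was called in none. Without background correction, 6 of the 8 were called, while 16.4% of all genes were. With a background offset of 50 in place of 16 the called metallothioneins were MT1F, MT1G, MT1X and MT2A, with 13.9% of all genes. The differences kept a negative sign for these 8 genes in each alternative that tested them, a sign that the filter fixes for MT1H. Much of this was set in advance. Other detection filters, the mean of the passing probes and the replicate block left the estimates of these genes as they were. Where the groups did not overlap, leaving out 1 array could hardly turn the sign either.

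**Figure D4:**
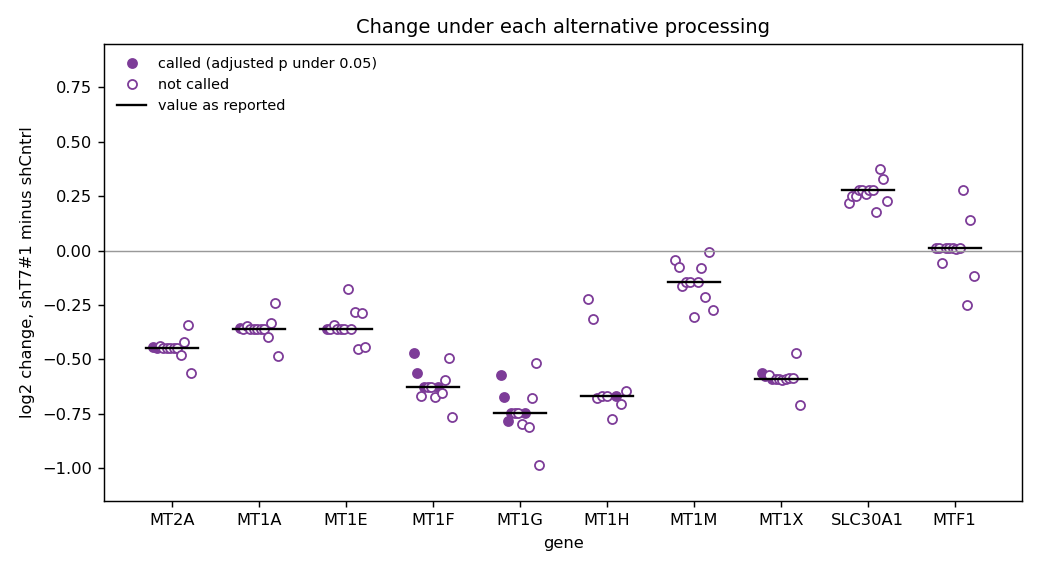
Difference shT7#1 minus shCntrl (y axis, log2 units) of the 8 tested metallothioneins, SLC30A1 and MTF1 under each alternative processing. Filled circles were called (limma adjusted p under 0.05), open circles were not, and the black bar is the value as reported. Every metallothionein point is below 0 and every SLC30A1 point above 0, while MTF1 falls on both sides. Other detection filters and the replicate block leave each estimate as it was, and the filter fixes the sign of MT1H. These points are therefore not separate checks of the sign.

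MTF1, the transcription factor that turns metallothionein genes on when zinc is plentiful, showed no difference beyond its spread. It had 6.62 and 7.14 log2 units in shT7#1, against 6.998 and 6.74 in shCntrl. The shT7#1 arrays lay on both sides of the shCntrl arrays. The difference was 0.01 ± 0.21 log2 units (SE) at an adjusted p of 0.982 by limma. Its 95% interval, from -0.50 to 0.52, leaves room for changes of up to 1.44-fold, and its sign turned under 3 of 12 alternatives.

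SLC30A1 (ZnT1), the zinc exporter of the plasma membrane and a known MTF1 target, did not share the metallothioneins' direction. It had 8.71 and 8.52 log2 units in shT7#1, against 8.39 and 8.29 in shCntrl. Both shT7#1 arrays were above both shCntrl arrays, as they were for 27.5% of all tested genes. The difference was 0.28 ± 0.13 log2 units (SE), with a limma adjusted p of 0.248 and a 95% interval from -0.04 to 0.60. A second probe had 8.14 and 8.18 log2 units in shT7#1, against 7.70 and 8.12 in shCntrl, with a difference of 0.25 ± 0.17 (SE). Whether the SLC30A1 difference departs from those of the metallothioneins was not tested.

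Of the SLC30A members that move zinc across the membranes of organelles or vesicles, 5 were tested and none was called by limma. SLC30A7, which brings zinc into the Golgi, had 9.67 and 9.81 log2 units in shT7#1, against 9.89 and 10.06 in shCntrl. Its groups did not overlap, and its difference was -0.24 ± 0.13 log2 units (SE), with a limma adjusted p of 0.315. SLC30A5 and SLC30A6 form a heterodimer in the early secretory pathway, and their differences were -0.02 ± 0.11 and 0.16 ± 0.19 log2 units (SE). The 3 other SLC30A5 probes had differences of -0.20, -0.31 and 0.08 log2 units, with overlapping groups at each. A second SLC30A6 probe differed by 0.35 ± 0.29 (SE), with overlapping groups. SLC30A9, tied to mitochondrial zinc export, differed by 0.06 ± 0.15 log2 units (SE). SLC30A3, known from synaptic vesicles, differed by 0.22 ± 0.16 log2 units (SE) with overlapping groups. Over the 6 tested exporters, SLC30A1 included, the differences ran from -0.24 to 0.28 with a median of 0.11 log2 units.

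Among the 11 tested importers no gene was called by limma either, and the differences ran from -0.39 to 0.32 with a median of 0.01 log2 units. In 5 of them the groups did not overlap, 4 higher and 1 lower in shT7#1, where over all tested genes 55.7% did not overlap. SLC39A14 (ZIP14), a zinc, iron and manganese importer that interleukin 6 is known to induce in mouse liver, had 8.82 and 8.91 log2 units in shT7#1, against 8.47 and 8.69 in shCntrl. Its difference was 0.28 ± 0.13 log2 units (SE), with a limma adjusted p of 0.251 and a 95% interval from -0.05 to 0.61. SLC39A8 (ZIP8), an importer known as an NF-kB target in immune cells, had 9.14 and 9.47 log2 units in shT7#1, against 9.07 and 8.98 in shCntrl. Its difference was 0.28 ± 0.15 log2 units (SE), but a second probe differed by -0.10 ± 0.21 (SE) with overlapping groups. The probes of SLC39A8 therefore do not share a direction.

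SLC39A3 and SLC39A1, both plasma membrane importers, had no overlap between the groups at their brightest probes. SLC39A3 had 11.08 and 10.86 log2 units in shT7#1, against 10.85 and 10.46 in shCntrl. Its difference was 0.32 ± 0.17 log2 units (SE), and its other probes differed by 0.18 and 0.01 log2 units with overlapping groups. SLC39A1 had 11.09 and 11.08 log2 units in shT7#1, against 11.03 and 10.79 in shCntrl, a difference of 0.18 ± 0.13 (SE). The limma adjusted p was 0.315 for SLC39A3 and 0.460 for SLC39A1.

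SLC39A13 (ZIP13), an importer of the secretory pathway needed for connective tissue, was the importer with the lowest difference. It had 5.16 and 4.77 log2 units in shT7#1, where 1 array was above background, against 5.24 and 5.46 in shCntrl, where both were. The difference was -0.39 ± 0.17 log2 units (SE), with a limma adjusted p of 0.230, and its size is uncertain so close to the floor.

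SLC39A6 and SLC39A10, importers of one subfamily that are linked to breast cancer cell migration, did not differ beyond their spread. SLC39A10, which MTF1 is known to repress in mouse cells, had 8.44 and 8.17 log2 units in shT7#1, against 8.24 and 8.39 in shCntrl. Its difference was -0.01 ± 0.14 log2 units (SE), and that of SLC39A6 was 0.01 ± 0.14 (SE), with 0.0028 at its second probe. Their 95% intervals ran from -0.37 to 0.35 and from -0.33 to 0.35 log2 units. The remaining importers SLC39A4, SLC39A7, SLC39A9 and SLC39A11 had differences between -0.13 and 0.07 log2 units, with overlapping groups at the probe tested. A second SLC39A7 probe differed by -0.25 ± 0.16 log2 units (SE), with both shT7#1 arrays below both shCntrl arrays.

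**Figure D5:**
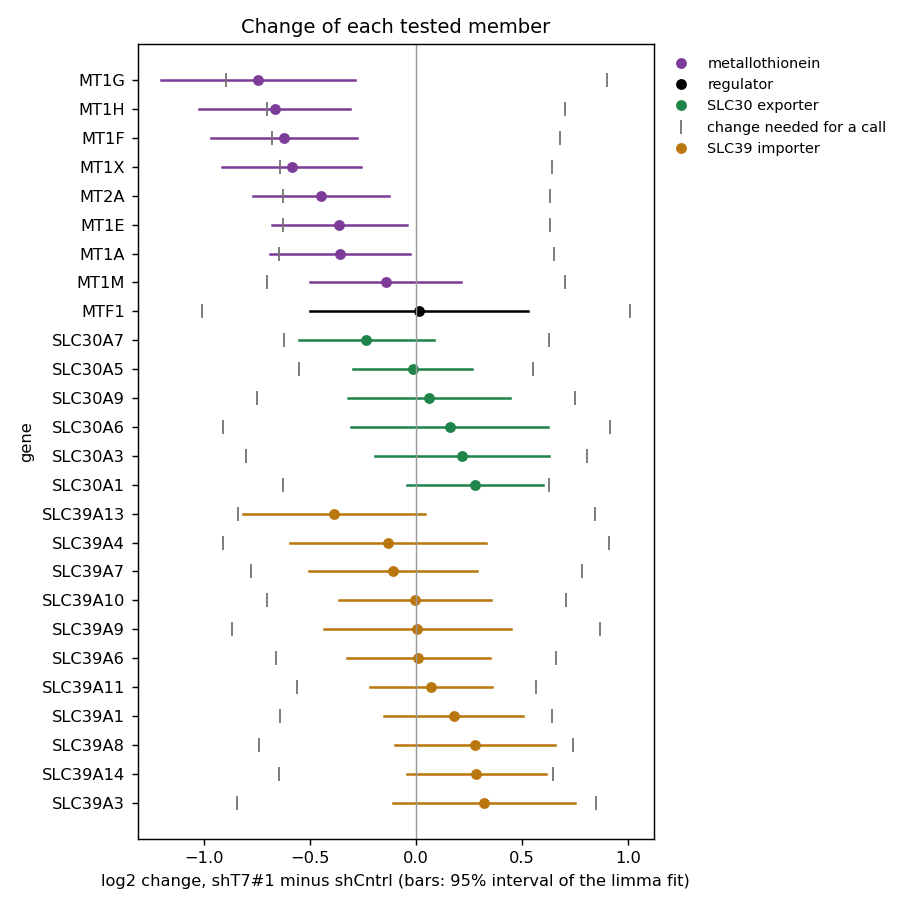
Difference shT7#1 minus shCntrl of each of the 26 tested genes (x axis, log2 units) with its 95% interval from limma; grey ticks mark the difference that gene would have needed for a call. The intervals of 7 metallothioneins, with MT1H among them, lie wholly below 0 without the estimate reaching the tick, and those of MT1M, MTF1 and all 17 transporters include 0.

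Other genes of metal handling and of the stimuli that induce metallothioneins were counted from lists. Of 11 tested copper genes, 1 rose and none fell. It was SLC31A2, a copper transporter of intracellular membranes, at 0.57 ± 0.11 log2 units (SE) and an adjusted p of 0.0479 by limma. The call was lost in the fit over probes, where the same probe had a limma adjusted p of 0.0620. The median of the copper list was -0.0048 log2 units. Of 13 tested iron genes, 2 fell and 1 was called higher by limma, with a median of -0.12 log2 units. The genes that fell were STEAP3 and STEAP2, reductases of iron and copper, at -0.91 ± 0.12 and -0.89 ± 0.14 log2 units (SE), and a second STEAP2 probe gave -0.52 ± 0.21 (SE). The gene called higher was the siderophore-binding LCN2. It was above background on both shT7#1 arrays and on 0 shCntrl arrays. Set against the detection floor, it was at least 1.99-fold higher in shT7#1 as processed here. It passed the filter through shT7#1 alone, which fixes its direction. At an unadjusted p under 0.05 were 2 of the 11 copper genes and 8 of the 13 iron genes, LCN2 included, where 25.9% of all tested genes were.

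Glucocorticoids also induce metallothioneins, and of 5 tested genes that respond to them 2 rose and 1 fell by limma, and 4 had an unadjusted p under 0.05. TSC22D3 (GILZ), a classic glucocorticoid target, fell by 0.95 ± 0.12 log2 units (SE), with -0.997 at its second probe. DUSP1, a MAP kinase phosphatase, rose by 0.80 ± 0.11 and the kinase gene SGK1 by 0.89 ± 0.14 log2 units (SE). The list therefore had no common direction, and its median was 0.21 log2 units. Of 8 tested heat shock genes, which heavy metals induce, 0 were called higher or lower by limma and 1 had an unadjusted p under 0.05, and the median was -0.05 log2 units. Of the 8 tested glutathione and thioredoxin genes 0 were called by limma and 2 had an unadjusted p under 0.05, with a median of 0.03 log2 units. The shares called over all tested genes were 2.95% higher and 3.55% lower, and 25.9% had an unadjusted limma p under 0.05 in either direction.

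The authors' own values can be set beside these, but they give 1 value per symbol, while 1 probe per gene was taken here. For MT1E the authors' means were 7.84 log2 units in shT7#1 and 8.01 in shCntrl, against 12.81 and 13.17 here. Its folds are therefore not like for like. The authors' deposited table gives the metallothioneins MT1G, MT1H, MT1F, MT1X, MT2A, MT1A, MT1M and MT1E at 0.58-fold, 0.59-fold, 0.63-fold, 0.66-fold, 0.73-fold, 0.78-fold, 0.81-fold and 0.88-fold in shT7#1. The same deposited table of the authors lists MT1L at 1.32-fold, but its probe was above background on no array. Of those under 1-fold, MT1H was above background on 0 of the shT7#1 arrays and MT1M on 1, so their folds are also uncertain. SLC30A1 stands there at 1.21-fold and MTF1 at 1.01-fold, again in the authors' deposited table. SLC30A1 and MT1H each have 2 probes, so their folds may not be like for like either. For SLC30A1 the authors' means were 8.3 log2 units in shT7#1 and 8.02 in shCntrl, against 8.61 and 8.34 here.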

How the data were processed

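Total RNA of 2 shT7#1 and 2 shCntrl samples was measured, 1 array each. The deposited table gives 1 unnormalised signal intensity and 1 detection p-value per probe and array. The submitters' processing notes name GenomeStudio 2011.1. Another deposited table has 1 log2 value per symbol, made by the authors with RMA in ArrayStar per the file headers. The last deposited table holds the authors' group means and the linear fold ratio of shT7#1 over shCntrl, without genes under 2.5 log2 units in both groups.

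Intensities were background-corrected here by normexp with an offset of 16, quantile-normalised and log2-transformed in limma 3.58.1 under R 4.3.3. A probe passed with detection p under 0.05 on at least 2 of 4 arrays. Each gene was taken at its brightest passing probe. Of 47323 probes, 19326 passed with a symbol, for 14731 genes. Probes of 23 symbols that a spreadsheet had turned into dates were left out. Symbols were updated through RefSeq (GRCh38.p14). One limma fit (lmFit, eBayes, group as the only term, two-sided) covered all genes, with Benjamini-Hochberg adjustment over all of them. Residual degrees of freedom were 2 per gene, with 3.66 more borrowed across genes. The fit was tested on simulated data with planted changes and independent noise. That noise had no shifts shared between genes, so the test does not check the calls made here. Errors of differences are standard errors. The number of arrays limits the precision. Slides and scan order were not modelled, since no source used here gives them. The bound for MT1H sets the shCntrl mean against the detection floor of each shT7#1 array.

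Every member is named or counted. Per-array values are given for the tested metallothioneins, MTF1, SLC30A1 and SLC39A10, and for transporters whose groups did not overlap, which were added after their values were seen. Members and lists were chosen with earlier results of these data known. Of the marker lists, 1 gene is not reported here. The 12 alternatives changed background correction, offset, normalisation, detection filter, choice of probe and source of values, left out each array, or added the replicate number as a block.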

Additional observations from a re-analysis of the deposited data

How the results depend on the processing

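No member was called higher under any of the 12 alternatives. The count of members called lower was 0 as reported. It was 6 without background correction, 4 with an offset of 50, 3 with detection required on all 4 arrays, 1 with median scaling and 3 with the replicate number as a block. The shares of all genes called, in either direction, were 16.4%, 13.9%, 12.1%, 5.32% and 8.41% in the same order. The members called with the replicate block were MT1F, MT1G and MT1H, and the filter fixes the direction of MT1H. It stayed at 0 with no detection filter, with the mean of the passing probes, on the authors' processed values and without any single array. Tested probe by probe, an analysis added after seeing the data, the counts called lower were 0 as reported, and 6, 4 and 3 under the first 3 of these settings. They were 0 with median scaling, with the replicate block and without any single array. The labels do not say that the replicate numbers pair the arrays, and deviations of same-numbered arrays correlated at 0.125 over genes, so the block shows only what sharing a number does.

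Over all genes, 434 were called higher and 523 lower as reported. The counts were 1161 and 1262 without background correction, 962 and 1086 with an offset of 50, 699 and 818 with detection on all 4 arrays, 303 and 480 with median scaling, 563 and 676 with the replicate block, and 7 and 0 on the authors' processed values. Leaving out 1 array gave 13 to 130 higher and 3 to 98 lower, the fewest without shT7#1 replicate 1, and these fits assume that the lone array of a group varies like the other group's. The cause of these shifts was not tested. Some of the settings also changed how many arrays or genes entered the fit.

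Some differences near 0 changed sign, and none of these was called. With median scaling MTF1 lay at -0.0565, SLC30A5 at 0.00535, SLC39A6 at -0.0291 and SLC39A9 at -0.0726 log2 units. SLC39A9 lay at -0.0023 without background correction and at -0.00022 with an offset of 50. Leaving out 1 array gave -0.252 to 0.277 for MTF1, -0.0425 to 0.0105 for SLC30A5, -0.0693 to 0.384 for SLC30A6, -0.112 to 0.23 for SLC30A9, -0.142 to 0.126 for SLC39A10, -0.387 to 0.116 for SLC39A4, -0.11 to 0.131 for SLC39A6, -0.289 to 0.0648 for SLC39A7 and -0.229 to 0.234 for SLC39A9. Genes near the detection floor, such as MT1H, MT1M and SLC39A13, are limited by background.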

Other observations

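The tested metallothionein genes lie in 1 cluster on chromosome 16, and its protein-coding neighbours were looked up in RefSeq order after the metallothionein values had been seen. NUDT21, OGFOD1 and BBS2 come before the cluster and differed by 0.19 ± 0.11, 0.03 ± 0.12 and -0.19 ± 0.13 log2 units (SE). After the cluster, NUP93 differed by 0.22 ± 0.13 and HERPUD1 by 0.04 ± 0.15 log2 units (SE), and SLC12A3 was not tested. None of these 5 neighbours was called by limma, and their limma adjusted p lay between 0.343 and 0.899. Probes for MT4 and for the metallothionein pseudogenes MT1IP, MT1JP and MT1P2, which the naming rule left out, were above background on no array.

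SLC39A5, an importer known from intestine and pancreas, was above background on 1 shT7#1 array and on neither shCntrl array. Its signal was 4.76 and 5.02 log2 units in shT7#1, against 4.39 and 4.55 in shCntrl. The authors' deposited table gives it at 2.26-fold, the largest fold of the 29 members listed there.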
